A study of Mus musculus with 2 samples.

Results

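The 9 genes described here, Ifit1, Ifit3, Isg15, Irf7, Oasl2, Usp18, Bst2, Rtp4 and Ifi27l2a, are interferon-stimulated genes of the mouse. They were chosen by name, through the gene symbol that the deposited transcript table gives for each gene identifier, and each symbol belonged to 1 of the 55536 genes in the gene tables. Their RNA was measured in the left cerebral cortex of 2 male B6CASTF1/J mice, an F1 hybrid of the B6 and CAST strains, aged 36 days and numbered replicates 1 and 2. Both mice belong to 1 group, and the labels name no infection and no treatment. The labels number the libraries as biological replicates 1 and 2, which are treated here as 2 mice. Both carry the same donor identifier, so the spread between the libraries may be biological or technical. Each library was made from 300 ng of total RNA with reduction of ribosomal RNA, and held 29915463 expected counts in replicate 1 and 27988085 in replicate 2, spike-in RNA included.

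Type I interferons are secreted when a cell senses viral nucleic acid. They bind a receptor whose chains are encoded by Ifnar1 and Ifnar2, and the kinases on that receptor activate transcription factors that include STAT2 and IRF9. These bind interferon-stimulated response elements in the promoters of many genes. In brain, microglia, endothelium, astrocytes and neurons can all respond, and a low tonic level of such transcripts is known in tissue without infection. The 9 genes cover several arms of the response. Irf7 encodes a transcription factor that amplifies interferon production. Isg15 encodes a ubiquitin-like modifier, and Usp18 the protease that removes it and that also restrains signalling at the receptor. Ifit1 and Ifit3 encode proteins that act on viral RNA, and Bst2 encodes tetherin, which holds budding virus particles at the cell surface. Oasl2 belongs to the family of oligoadenylate synthetases, Rtp4 to the receptor transporting proteins, and Ifi27l2a to the Ifi27 family of small hydrophobic proteins.

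The promoters are shown because a shared response element is what the genes are known for. The 9 genes lie on 8 chromosomes in mm10. Only Ifit1 (ENSMUSG00000034459.8, chromosome 19, 34640871 to 34650009) and Ifit3 (ENSMUSG00000074896.3, chromosome 19, 34583531 to 34588731) are neighbours, 52140 bases apart in the Ifit cluster. The RefSeq promoter table of GRCm38.p6, the same assembly as mm10, held 6 of the 9 genes, each as 250 bases before to 50 bases after the start. The core of the response element was searched as GAAANNGAAA on both strands, with overlapping matches counted. It was found in 4 of the 6 promoters, those of Isg15, Bst2, Ifit1 and Ifit3, with 9 matches in all. Across all 32851 promoters in the table, 3.44% held at least 1 match. The 160 bases before the start of those 4 genes read 5′ to 3′ on the gene's own strand as follows, with the matches in capitals.
Isg15, chr4:156200819-156200978, minus strand: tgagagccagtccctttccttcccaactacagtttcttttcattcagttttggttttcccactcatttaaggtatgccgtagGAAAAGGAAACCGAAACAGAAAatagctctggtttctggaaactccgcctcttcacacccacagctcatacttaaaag
Bst2, chr8:71537473-71537632, minus strand: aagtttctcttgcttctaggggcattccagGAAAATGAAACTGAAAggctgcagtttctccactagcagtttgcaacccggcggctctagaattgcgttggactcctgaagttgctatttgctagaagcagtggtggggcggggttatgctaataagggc
Ifit1, chr19:34640729-34640888, plus strand: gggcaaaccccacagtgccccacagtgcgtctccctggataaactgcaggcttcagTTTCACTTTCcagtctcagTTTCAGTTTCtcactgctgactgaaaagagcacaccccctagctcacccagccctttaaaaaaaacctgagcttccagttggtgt
Ifit3, chr19:34583369-34583528, plus strand: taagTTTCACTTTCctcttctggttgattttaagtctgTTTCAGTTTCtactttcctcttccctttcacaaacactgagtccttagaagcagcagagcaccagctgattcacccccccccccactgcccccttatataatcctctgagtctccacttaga

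In the Isg15 promoter 3 matches overlapped, so that 1 run of repeats covered the bases from 78 to 57 before the start. The Bst2 promoter held 2 overlapping matches from 130 to 115 bases before the start. The Ifit genes carried the core on the other strand, where it reads as its reverse complement. Ifit1 had 2 separate matches, starting 104 and 85 bases before the start, and Ifit3 had 2, starting 156 and 122 bases before it. The promoters of Irf7 and Oasl2 held none in this window. With the window shortened to the 100 bases before the start, 2 of the 6 promoters kept a match that lies wholly inside it, and 0.983% of all promoters did. Of 74 other interferon-stimulated genes listed for this work, 59 had a promoter in the table and 31 of those (52.5%) held the core, against 3.99% of all 27025 genes there. A match is a description of the sequence and not a measured binding site.

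**Figure D1:**
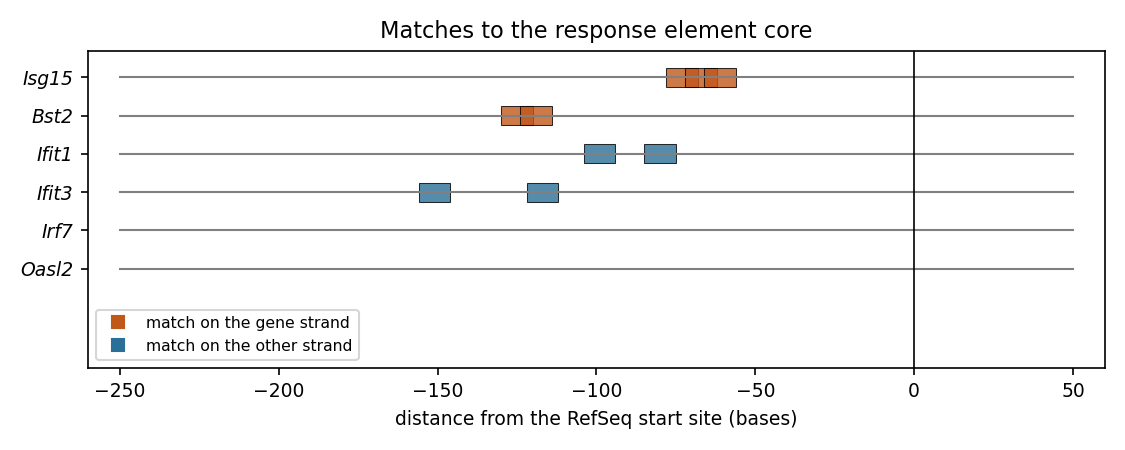
Positions of matches to the core GAAANNGAAA in the 6 promoters found in the RefSeq table, as distance in bases from the start site, with boxes for matches on the gene's strand (orange) or the other strand (blue). Those of Isg15 and Bst2 overlap, those of Ifit1 and Ifit3 are separate, and Irf7 and Oasl2 have none.

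All 9 transcripts were detected in both mice, and all were scarce. Together they held 141 expected counts (estimated reads assigned to a gene) in replicate 1 and 208 in replicate 2, or 4.73 and 7.43 in each 10⁶ counts of the library. The sum of their TPM, which scales reads by transcript length to a fixed total per library, was 7.26 in replicate 1 and 10.2 in replicate 2. The median gene of the set stood at a TPM of 0.685, against 3.68 for all 22028 protein-coding genes. A TPM of 1 was reached in both mice by 3 of the 9 genes, in 1 mouse by 1 gene and in neither by 5, whereas 58.6% of protein-coding genes reached it in both. Levels spanned 8-fold from Usp18 to Bst2, and from 33.0% to 45.0% of protein-coding genes lay below them. In bulk tissue a small share of cells with the RNA and a low level in many cells cannot be told apart.

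Bst2 had the highest mean TPM of the set in the alignment-based table. It had 20 counts and a TPM of 1.87 in replicate 1, and 23 counts and a TPM of 2.13 in replicate 2 (mean 2.00 ± 0.184, SD, n = 2). It is a short gene on chromosome 8 (ENSMUSG00000046718.8, 71534255 to 71537456), so a few reads give a comparatively high length-scaled level. Its coding transcript alone stood at a TPM of 1.13 in replicate 1 and 1.53 in replicate 2. A processed transcript of 412 bases held 0.73 and 0.60, from 4.53 and 3.46 counts, and had 0 counts in the read-based table. Ifit3 had the most reads of the set, 50.9 expected counts in replicate 1 and 53.4 in replicate 2, and TPM of 1.57 and 1.76 (mean 1.67 ± 0.134). The libraries differed little for both genes.

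Ifi27l2a (ENSMUSG00000079017.3, chromosome 12, 103442167 to 103443680) followed with 10 and 12 counts and TPM of 1.40 in replicate 1 and 1.79 in replicate 2. Oasl2 (ENSMUSG00000029561.17, chromosome 5, 114896936 to 114912234) was the gene with the largest SD, with 16 counts and a TPM of 0.54 in replicate 1 and 38 counts and a TPM of 1.44 in replicate 2 (mean 0.99 ± 0.636). It alone passed a TPM of 1 in 1 mouse and not in the other.

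The regulators were lower still. Irf7 (ENSMUSG00000025498.15, chromosome 7, 141262706 to 141266481) was assigned 11 reads in replicate 1 and 21 in replicate 2, with TPM of 0.61 and 0.73. Its TPM were closer than its counts because the deposited effective length of the gene, which follows the mix of transcripts assigned, was 911 bases in replicate 1 and 1559 bases in replicate 2. In replicate 1, 57.7% of the TPM of Irf7 lay on a processed transcript of 332 bases, from 1.62 counts. The read-based table gave that transcript 0 counts, and Irf7 a TPM of 0.564 in replicate 1 and 1.34 in replicate 2. Isg15 (ENSMUSG00000035692.6, chromosome 4, 156199424 to 156200818) had 4 and 8 counts and TPM of 0.31 in replicate 1 and 0.66 in replicate 2. Its protease gene Usp18 (ENSMUSG00000030107.10, chromosome 6, 121245906 to 121270917) was the lowest of all, with 6 and 8 counts and TPM of 0.18 and 0.32.

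Rtp4 (ENSMUSG00000033355.6, chromosome 16, 23520291 to 23614222) was assigned 11 reads in replicate 1 and 17.7 in replicate 2, with TPM of 0.53 and 0.84. Ifit1, the longest transcript with a single model among the 9, had 12.5 and 26.8 counts but a TPM of only 0.25 in replicate 1 and 0.57 in replicate 2. By counts it stood above Ifi27l2a and Isg15, and per length it stood below both.

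The order of mean TPM was Bst2, Ifit3, Ifi27l2a, Oasl2, Rtp4, Irf7, Isg15, Ifit1 and Usp18. Among the 8 pairs of neighbours in that order, 1 differed by more than the larger of their SDs, namely Bst2 over Ifit3, by 0.335 TPM against an SD of 0.184. In the read-based table that pair was reversed, with means of 1.91 for Bst2 and 2.33 for Ifit3. The deposited bounds on the TPM of Bst2 also overlapped those of Ifit3 in each mouse, and ran from 1.12 to 3.14 in replicate 1 and from 1.37 to 3.60 in replicate 2. The other 7 pairs lay within the spread between the mice, so the order inside the set is not resolved gene by gene. The 3 genes at the top were above the 5 at the bottom in both mice. The smallest p that permuting 2 libraries allows is 0.5 (exact permutation test), so none was computed.

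**Figure D2:**
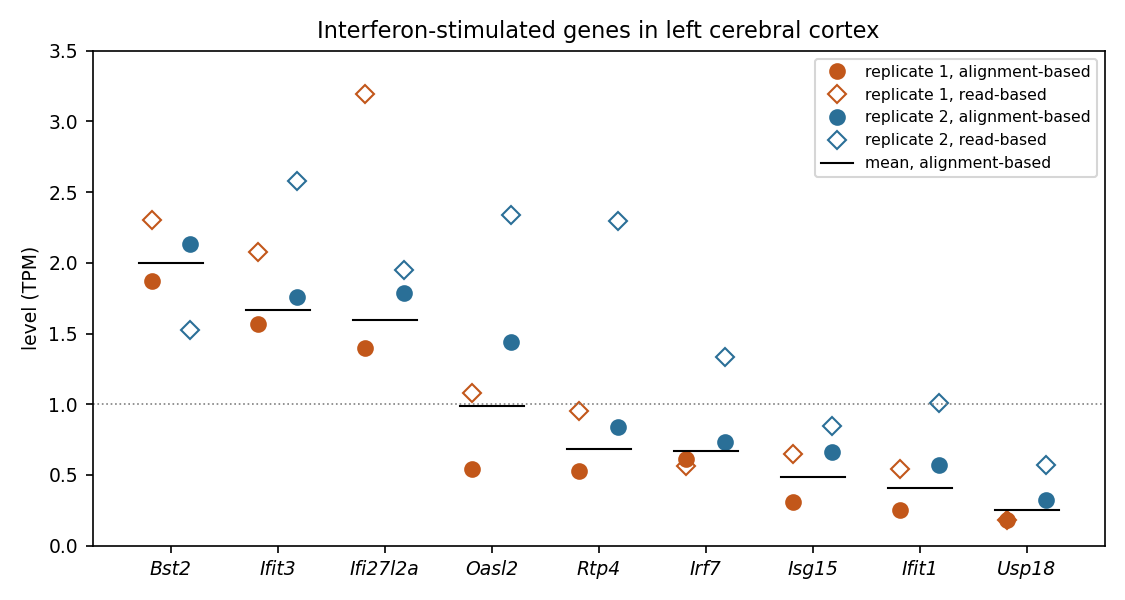
Level in TPM (linear axis) of each of the 9 genes in replicate 1 (orange) and replicate 2 (blue), from the alignment-based gene table (filled circles) and the read-based transcript table (open diamonds), with black bars for alignment-based means of the 2 mice and a dotted line at a TPM of 1. Bst2, Ifit3 and Ifi27l2a lie above the line in both mice in both tables.

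The submitters also deposited a second quantification, made directly from the reads without the transcriptome alignment. Its TPM were higher for 8 of the 9 genes, with a median log2 ratio of alignment-based over read-based TPM + 1 of -0.32. Ifi27l2a led there, at 3.19 in replicate 1 and 1.95 in replicate 2 from 7 and 4 counts, so its direction between the mice was the opposite of that in the first table. Bst2 had 16 and 10 read-based counts and TPM of 2.30 in replicate 1 and 1.53 in replicate 2, which also turned its direction. In the order of means, 5 of the 9 genes kept their place, and Usp18 was last in both tables, at a read-based mean of 0.375.

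The gene tables further give a posterior mean TPM with a lower and an upper bound, whose level the headers do not state. The bounds of the 2 mice overlapped for all 9 genes. For Ifit3 they ran from 1.10 to 2.00 in replicate 1 and from 1.23 to 2.22 in replicate 2. For Oasl2 they ran from 0.582 to 1.61 and from 1.30 to 2.61. In 4 of the 18 values the TPM itself was below the lower bound. These were Irf7 in both mice, where the bounds began at 0.702 in replicate 1 and 1.03 in replicate 2, and Oasl2 and Usp18 in replicate 1. All 3 genes have several annotated transcripts.

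Some of these genes have near relatives that can share reads. Ifit3 and Ifit3b lie in the same cluster, and their longest open reading frames, 403 codons each, were 99.1% identical. Ifit3b held 27.1 expected counts in replicate 1 and 30.6 in replicate 2. The deposited posterior SD of the counts was 2.91 and 3.08 for Ifit3, the largest of the set, so the split between Ifit3 and Ifit3b is uncertain. Their sum was whole, 78 counts in replicate 1 and 84 in replicate 2, and the log2 ratio of that sum was -0.14.

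Ifit1 and Ifit1bl2, 78.1% identical over the aligned reading frame, both had fractional counts with the same deposited posterior SD, 0.5 in replicate 1 and 0.43 in replicate 2, so their split is uncertain too. Ifit1bl2 held 14.5 and 11.3 counts, and the sum of both was 27 in replicate 1 and 38 in replicate 2. Ifit1bl1 (78.6% identical) had 40 and 30 counts. Ifit2, another member of the cluster, had 207 and 217 counts and TPM of 2.83 and 3.17, above both Ifit1 and Ifit3. Oasl1, the relative of Oasl2 at 64.7% identity, had 1 count in each mouse. No count of Ifi27l2b was assigned in either mouse, which leaves room for 3 counts in a library, while its relative Ifi27 stood at a TPM of 22.6 in replicate 1 and 30.6 in replicate 2. The counts of 6 of the 9 genes were whole numbers in both mice, within 0.005, and Ifit1, Ifit3 and Rtp4 were the exceptions.

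Neighbouring genes also overlap some of the set. Irf7 overlaps the end of Phrf1 on the other strand by 45 bases, and Phrf1 had 1638 and 1774 counts. Rtp4 overlaps Masp1 on the other strand by 525 bases, with 300 and 283 counts. It also overlaps the non-coding Gm45338 on its own strand by 39791 bases, with 23 and 24.3 counts. The posterior SD of the counts of Rtp4 was 0.38 in replicate 1 and 0.95 in replicate 2. In replicate 2 the counts of Rtp4 and Gm45338 were both fractional. Strand cannot separate genes on the same strand, so the level of Rtp4 is uncertain for that reason too. The labels describe the spike-in profile as one for stranded libraries. Whether the counting used the strand is not given in the sources used here, so the levels of Irf7 and Rtp4 are uncertain to that extent.

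Every one of the 9 genes had fewer scaled counts in replicate 1 than in replicate 2. After TMM scaling of the counts, with a prior count of 0.5, the log2 ratio of replicate 1 over replicate 2 lay between -1.26 for Oasl2 and -0.09 for Ifit3, with a median of -0.72 over all 9. By the read-based counts, 7 of the 9 were lower in replicate 1, with a median of -0.36, and the share over all genes was not computed there. Low values in replicate 1 were common at this abundance in the alignment-based counts. Among 5587 genes with a mean count between 6 and 52.1, the range of the 9, 66.9% were lower in replicate 1 and the median log2 ratio was -0.24. Among the 2365 protein-coding genes in that range 61.7% were lower, with a median of -0.16. Over the 16491 genes whose mean count was 20 or more, the share was 50.1%. Scaling to the spike-in totals, which made up 0.407% of counts in replicate 1 and 0.322% in replicate 2, shifted the median gene by -0.40.

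The ratios of single genes were imprecise. Exact binomial (Clopper-Pearson) counting intervals at 95%, which cover counting error only, included 0 for 7 of the 9 genes. The exceptions were Oasl2, with 16 counts in replicate 1 and 38 in replicate 2 (-1.26, interval -2.22 to -0.41), and Ifit1, with 12.5 and 26.8 counts (-1.06, interval -2.17 to -0.08). These were also the 2 genes past a log2 ratio of 1 in size. For Ifit1 the ratio was -0.83 in the read-based table and -0.52 for the sum with Ifit1bl2. In the read-based table Oasl2 (-1.02), Irf7 (-1.28) and Usp18 (-1.15) were past 1, Usp18 from 4 and 9 counts. The share of all genes past 1 was not computed for that table. By alignment-based counts, 15.8% of the 5587 genes of like counts were past 1, and 11.6% were past it with the lower value in replicate 1. For Ifit3 the interval was -0.67 to 0.49 and for Isg15 it was -3.22 to 0.87, so no difference in Isg15 was detectable at this depth. All 9 ratios lay between the 5th (-1.42) and the 95th percentile (0.91) of the genes of like counts. Among the protein-coding genes of like counts these percentiles were -1.26 and 0.93, so Oasl2 lay at the edge of that narrower range.

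The minimum for comparing single genes was a mean count of 20, which 3 of the 9 reached, namely Bst2, Ifit3 and Oasl2. Their median log2 ratio was -0.23, against 0.00 for all genes at that minimum. Of the 3, 1 (Oasl2) was past a log2 ratio of 1, where 1.73% of all genes were. That background reaches far higher counts than these 3 genes have. Among the 5587 genes with a mean count between 6 and 52.1, the median was -0.24 and 15.8% were past 1. Summed over all 9 genes, the counts of 141 in replicate 1 and 208 in replicate 2 gave a log2 ratio of -0.59 (counting interval -0.91 to -0.28). With 1 library from each mouse, a mouse cannot be told apart from its library, and the ratio was not replicated.

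**Figure D3:**
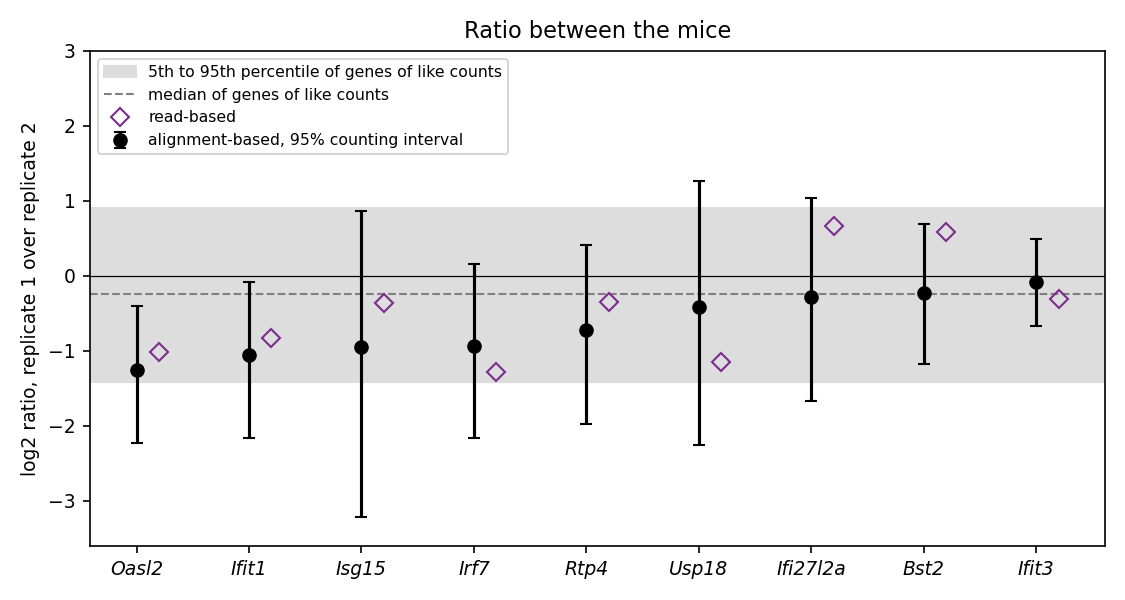
Log2 ratio of replicate 1 over replicate 2 for each gene, from TMM-scaled expected counts (black, bars are 95% exact counting intervals) and from read-based counts scaled to their total (purple diamonds), where the grey band runs from the 5th (-1.42) to the 95th percentile (0.91) of genes with a mean count in the same range, and the dashed line is their median (-0.24). All 9 black points lie below 0 and inside the band.

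The 9 genes have 37 annotated transcripts, and 4 of the genes have 1 each. By alignment-based counts, 24 transcripts held counts in at least 1 mouse and 13 were at 0 in both. In Oasl2 the largest share of TPM in both mice went to 1 transcript annotated as a target of nonsense-mediated decay, at 38.7% in replicate 1 and 50.3% in replicate 2. Protein-coding transcripts of Oasl2 took 61.3% (8.17 counts) in replicate 1 and 7.08% (1 count) in replicate 2. Retained-intron transcripts took 0 counts in replicate 1 and 11.4 in replicate 2, or 42.6% of the TPM. In the read-based table protein-coding transcripts of Oasl2 took 65.8% in replicate 1 and 20.2% in replicate 2, the same direction. Retained-intron transcripts of Oasl2 held 2.01 counts there in replicate 1 and 10.8 in replicate 2.

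In Irf7 the counts on protein-coding transcripts moved otherwise than in Oasl2, with 9.37 in replicate 1 and 10.8 in replicate 2. Its retained-intron transcripts held 0 and 6.71 counts, the same direction as in Oasl2. In the read-based table they held 0.78 counts in replicate 1 and 8.34 in replicate 2, again the same direction. Their share of the TPM of Irf7 there was 25.7% and 22.1%, so the direction of the share turned while that of the counts did not. Rtp4 was placed wholly on 1 coding transcript in replicate 1 and on 2 others (60.6% and 39.4% of TPM) in replicate 2, so its transcripts were not resolved at 11 and 17.7 counts. A single coding transcript took all of Usp18 in replicate 1 and 72.1% in replicate 2. The coding transcript of Bst2 took 60.7% of its TPM in replicate 1 and 71.8% in replicate 2 in the alignment-based table, and all of it in the read-based table.

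Over the 9 genes, retained-intron transcripts held 0 counts in replicate 1 and 19.1 (9.18%) in replicate 2, and transcripts annotated for nonsense-mediated decay held 7.83 (5.54%) and 25.6 (12.3%). All the counts of the latter class lay on 1 transcript of Oasl2, so that share describes 1 gene and not the set. Across all protein-coding genes retained-intron transcripts held 3.69% of counts in replicate 1 and 4.66% in replicate 2, and those annotated for nonsense-mediated decay held 1.92% and 1.96%. Counted on protein-coding transcripts alone, the 9 genes summed to 127 in replicate 1 and 156 in replicate 2. The log2 ratio was then -0.33, with a counting interval of -0.68 to 0.02, against -0.59 over all transcripts. The part of the other transcript classes in the ratios of single genes was not tested.

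**Figure D4:**
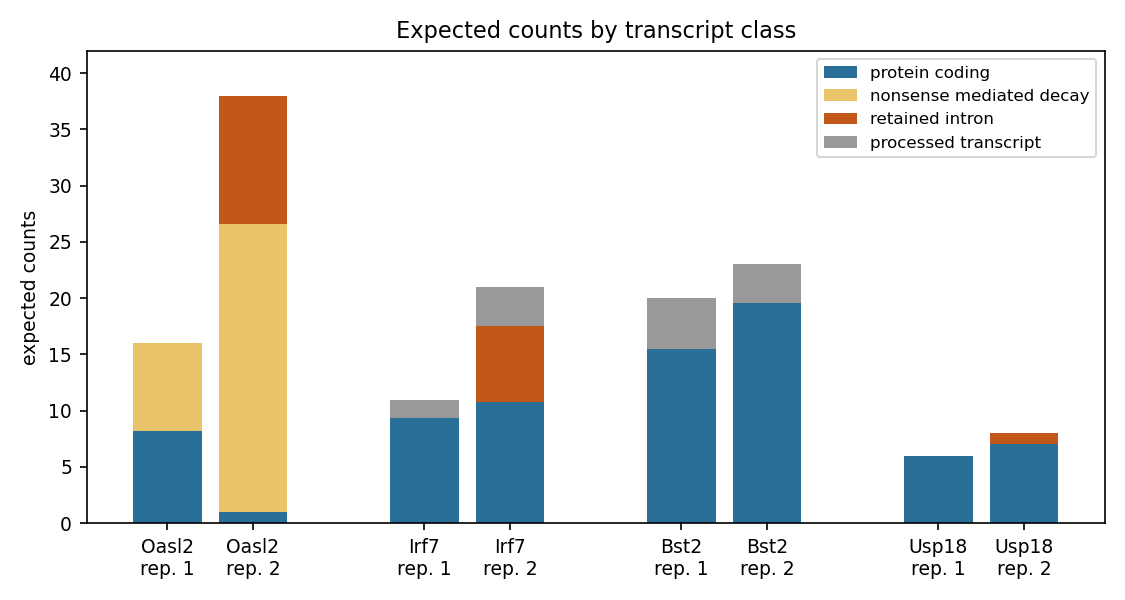
Expected counts of Oasl2, Irf7, Bst2 and Usp18 in replicate 1 and replicate 2, stacked by the annotated class of the transcript they were assigned to. Retained-intron counts (orange) appear in replicate 2 for Oasl2 (11.4), Irf7 (6.71) and Usp18 (1) and are at 0 in replicate 1.

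The rest of the pathway was described from lists of its parts. Interferon genes themselves had almost no reads. Of 21 measured, 19 were at 0 in both mice, Ifnb1 and Ifng among them, a count that leaves room for 3 in a library. The read-based table placed 4.21 counts in replicate 1 and 3.21 in replicate 2 on Ifna16, which was named after its value was seen. The 2 with reads were Ifne, an interferon known from the female reproductive tract, with 1 and 2 counts, and Ifnab with 0 and 1. By contrast 5 of 6 receptor genes reached a TPM of 1 in both mice. Ifnar1 stood at 22.5 in replicate 1 and 24.0 in replicate 2, its partner Ifnar2 at 8.33 and 11.1, and the type II receptor chain gene Ifngr2 at 17.9 and 14.8. The exception, named after its value was seen, was Ifnlr1 of the type III receptor, with 8 and 12 counts.

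Receptor signalling genes all passed a TPM of 1 in each mouse (6 of 6), and their median TPM was 10.9. The kinase genes Jak1 (55.7 in replicate 1 and 53.7 in replicate 2) and Jak2 (18.5 and 17.0) and the transcription factor gene Stat2 (12.1 and 15.7) were the highest. Of 16 measured genes of nucleic acid sensing, 12 reached a TPM of 1 in both mice. The median of the 16 was 2.13, and the highest were the adaptor gene Traf3 (30.1 and 24.5), the kinase gene Tbk1 (22.2 and 21.5) and the transcription factor gene Irf3 (17.0 and 17.1). Among 14 negative regulators 13 reached it, and the median of the 14 was 16.2. The highest were the RNA-editing enzyme gene Adar (58.5 and 69.0), the phosphatase gene Ptpn11 (44.0 and 41.4) and the ribonuclease subunit gene Rnaseh2c (32.8 and 32.3). In these 4 lists 39 genes had a mean count of 20 or more, and 0 of them were past a log2 ratio of 1 between the mice, where 1.73% of all genes were.

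Of 73 other interferon-stimulated genes that were measured, 33 reached a TPM of 1 in both mice, against 58.6% of protein-coding genes. The median of the 73 was 1.09, against 0.685 for the 9. The most abundant were Ly6e (158 in replicate 1 and 137 in replicate 2), a gene of a surface protein, B2m (50.5 and 48.8), the light chain of MHC class I, and Shisa5 (30.6 and 28.2). Cxcl10, Ccl5, Ifi44l and Ifi27l2b, named after their values were seen, were at 0 counts in both mice, though Ccl5 had 2 read-based counts in each. Between the mice, 46 of the 73 had enough counts (a mean of 20) to be compared. Of these, 29 were lower and 17 higher in replicate 1, the median log2 ratio was -0.12, and 0 were past 1 in size. Over all genes with that mean count 50.1% were lower in replicate 1 and 1.73% were past 1. These lists were picked with results of the same data known, so their counts describe the libraries and test nothing.

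**Figure D5:**
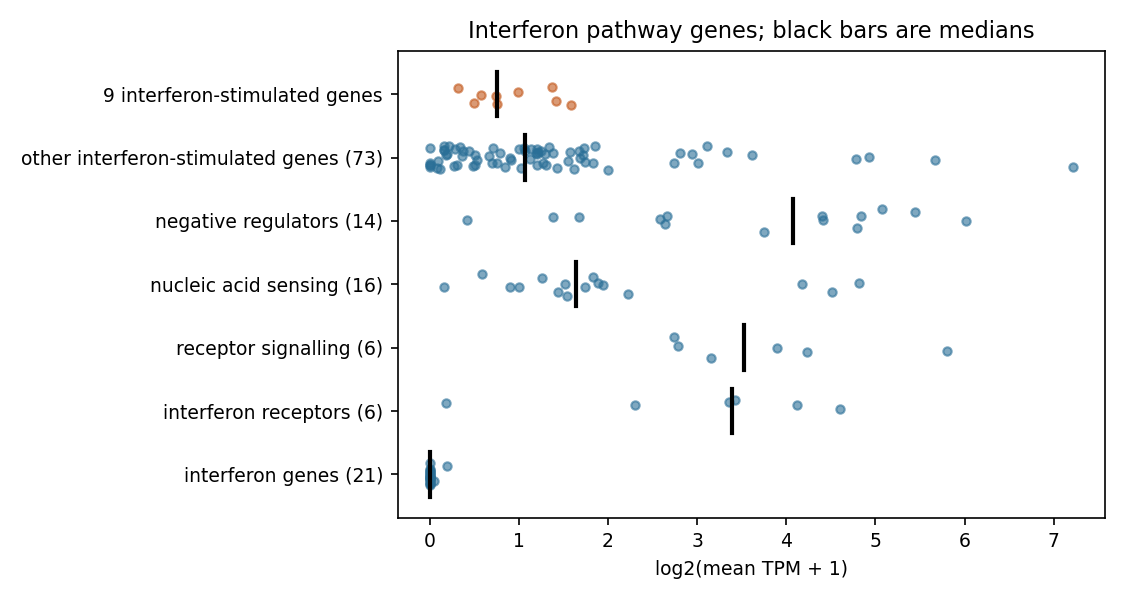
Mean level of the 2 mice, as log2(TPM + 1), of the 9 genes (orange) and of the genes in 6 lists of the interferon pathway (blue, number of genes in brackets), with 1 point per gene and a black bar at each median. The 21 interferon genes sit at or near 0, and the receptor, signalling and negative regulator lists have medians of 9.47, 10.9 and 16.2 TPM.

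Cell types that can express these genes were checked by their markers in both libraries. Microglial markers were at a TPM of 1 or more in each mouse (10 of 10), with a summed TPM of 195 in replicate 1 and 198 in replicate 2, and so were endothelial markers (10 of 10), with 134 and 135. Excitatory neuron markers (10 of 10) summed to 2905 and 2755, astrocyte markers (10 of 10) to 1649 and 1574, and oligodendrocyte markers (10 of 10) to 1534 and 1277. Of 12 markers of blood leukocytes, Cd4 alone reached a TPM of 1 in both mice, and the list summed to 3.78 and 3.08. The T cell markers Cd3d and Cd8a and the B cell marker Ms4a1 were at 0 in both mice in the alignment-based table, but the read-based table gave each between 14.1 and 25.2 counts. Erythroid markers (5 of 5) summed to 570 in replicate 1 and 561 in replicate 2. Marker lists of leptomeninges and choroid plexus (6 of 10) summed to 41.2 in replicate 1 and 43.6 in replicate 2. The summed counts of microglial markers had a log2 ratio of 0.02 (counting interval -0.03 to 0.07) and those of endothelial markers of -0.04 (-0.09 to 0.02), against -0.59 for the 9 genes. These sums are not alike in depth. Microglial markers held 7206 counts in replicate 1 and 6941 in replicate 2, and the 9 genes 141 and 208. Genes of like counts to the 9 had a median log2 ratio of -0.24. The summed counts of leptomeningeal and choroid plexus markers had a log2 ratio of -0.19 (-0.26 to -0.11), which was also below 0, but the markers did not move together. Of the 9 with a mean count of 20 or more, 6 were lower and 3 higher in replicate 1. Among the higher were Ttr (0.74, 0.40 to 1.11) and Prlr (0.65, 0.15 to 1.17). The ratio was above 0 for markers of oligodendrocytes (0.37, 0.35 to 0.39), astrocytes (0.16, 0.15 to 0.17), erythroid cells (0.12, 0.07 to 0.18) and excitatory neurons (0.08, 0.07 to 0.10). It was also above 0 for blood leukocytes (0.39, 0.01 to 0.78), a sum of 133 counts in replicate 1 and 99.2 in replicate 2. Cd4 alone held 118 and 88 of these, and its own interval included 0 (-0.02 to 0.80). The part of cell composition in the ratios was not tested.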

How the data were processed

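Total RNA-seq libraries of 2 mice were deposited with an alignment-based gene table, a matching transcript table and a read-based transcript table each. All were made on mm10 with GENCODE M21, per the file listings deposited with them. Not given in the sources used here: aligner, quantifiers, read filters. Per the file headers, the authors deposited expected counts, which are estimated reads without normalization. They also deposited TPM scaled over every row, and transcript shares as percent of gene TPM. The deposited lower and upper bounds are on the posterior TPM. Fractional counts show that shared reads were split between genes upstream. TPM depends on the rows it is scaled over, and levels rescaled to nuclear protein-coding genes come out 2.22 and 2.20 times higher in replicates 1 and 2.

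The 9 genes were found by symbol in the read-based table and joined by gene identifier. Names and 1-based coordinates came from GENCODE M21. The 26345 rows that are no GENCODE gene, spike-ins included, were left out of scaling. Expected counts were rounded and scaled with TMM in edgeR 4.0.16 (R 4.3.3) over 17529 genes. No model was fitted and no p-value computed. Ratios used a prior count of 0.5, and intervals are exact binomial at 95%. Reading frames were aligned with biopython 1.88. Tables and figures used scipy 1.17.1, pandas 2.3.3, numpy 2.4.6 and matplotlib 3.10.9 under Python 3.11.15. The ratio and interval steps were tested on simulated data. The genes named are the 9 members, the 3 most abundant of each pathway list, interferon genes with reads, and the closest relatives of members. Overlapping neighbours, leukocyte markers, genes at 0 counts, Ifnlr1, Ifna16, Ttr and Prlr are named besides, chosen after their values were seen. The members and lists were chosen with earlier results of these data known. Alternatives were scaling by spike-in totals, by library totals or by size factors of DESeq2 1.42.0, other thresholds, prior counts and pseudocounts, and the read-based table.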

Additional observations from a re-analysis of the deposited data

How the results depend on the processing

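The count of genes at a TPM of 1 in both mice, 3 as reported, was 9 at a threshold of 0.1, 0 at a threshold of 5 and 6 after rescaling TPM so that it sums over nuclear protein-coding genes. It was 4 in the read-based table, 4 without replicate 1 and 3 without replicate 2. The share of protein-coding genes was computed for the reported setting only (58.6%), so the other counts have no matching background. Rescaling raises every gene of a library by the same factor. The median TPM of 0.685 was 1.62 in the read-based table and 1.51 after rescaling. It was 0.84 without replicate 1 and 0.54 without replicate 2. The median log2 ratio of alignment-based over read-based TPM was -0.53 with a pseudocount of 0.1. The promoter count of 4 fell to 2 in the 100 bases before the start, since a match had to lie wholly inside the shorter window.

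The median log2 ratio of the 3 genes past the count minimum, -0.23, stayed below 0 under DESeq2 size factors (-0.23), library totals (-0.29), spike-in totals (-0.63) and a prior count of 2 (-0.22). With no count minimum the median over all 9 genes was -0.72. By read-based counts Bst2 fell below the minimum and Ifit1 passed it, and the median of Ifit3, Ifit1 and Oasl2 was -0.83. The read-based ratios of the first 3 genes were 0.58 for Bst2, -0.31 for Ifit3 and -1.02 for Oasl2. Scaling to spike-in totals shifted the median gene by -0.40. All 9 genes were lower in replicate 1 under each of these 3 scalings of the alignment-based counts, and 7 in the read-based table, where Bst2 and Ifi27l2a turned. A scaling shifts the log2 ratio of every gene by the same amount. That amount was -0.06 for library totals, and DESeq2 size factors moved the median from -0.232 to -0.228. The ratio nearest 0 was -0.09 (Ifit3), so the count of 9 followed from the first result and adds no support. Shares over all genes were not computed for these settings. The genes past a log2 ratio of 1 numbered 2 with no count minimum, or over the range of the members' own counts, an alternative chosen after seeing the data, and 1 otherwise. No gene of the set reached a minimum of 100 counts, so that alternative gave no value. No paired analysis was possible because both libraries belong to 1 group. Counts of 4 to 53 per gene limit every ratio here.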
